A study of Homo sapiens with 9 samples.

Results

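The genes described here are 53 genes of the G1/S transition and of chromosomal DNA replication, chosen by name: origin licensing factors, replisome subunits, enzymes of nucleotide supply, and regulators and targets of the E2F transcription factors. All 53 were among the 17083 genes of the deposited table, and all 53 were among the 12924 genes with enough reads to test. RNA was sequenced from HEK293T, a line of human embryonic kidney origin whose cell type the labels give as epithelial and whose genotype they give as WT in all 3 groups. The 3 groups of 3 libraries were cells overexpressing an empty FLAG vector (Vector), FLAG-tagged PLK2 (PLK2) and FLAG-tagged PLK2 with the D223N substitution (PLK2(D223N)). PLK2 is a polo-like serine/threonine kinase. The labels give no time after transfer, no dose of plasmid and no share of cells that carried it. HEK293T cells hold the SV40 large T antigen, which binds the retinoblastoma proteins that otherwise hold E2F factors back, and all 3 groups share that setting.

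Before S phase, the origin recognition complex marks origins, and CDC6 and CDT1 load the MCM2-7 helicase there, the step called licensing. The kinases CDC7-DBF4 and cyclin E-CDK2 then fire the origins by adding CDC45 and GINS to the helicase, after which the polymerases, the PCNA clamp and its RFC loader copy the strands. Many of these genes are transcribed late in G1 by E2F factors, so their RNA is widely used as a readout of S phase entry.

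Libraries held between 14288165 and 16510186 estimated counts. The transgene was read first: PLK2 stood at 3.42 ± 0.637 CPM (counts scaled to the library total; mean ± SD, n = 3) with Vector, at 12358 ± 1650 with PLK2(D223N) and at 23744 ± 2384 with PLK2, so the 2 kinase forms were not at equal RNA levels (log2 fold change 0.94, SE 0.09, edgeR quasi-likelihood test, adjusted p = 4.99e-05). Of the 7 markers listed for the HEK293 line, VIM was at 560 to 616 TPM (a transcript's share of the library, scaled by its length). KRT18 was at 67.0 to 74.1, KRT8 at 22.1 to 26.9 and CDH2 at 8.0 to 8.88. NEFL was at 0.84 to 1.32, PAX2 at 0.12 to 0.5 and NEFM at 0.05 or less. The 7 summed to between 661 and 720 TPM in every library, most of it VIM, and the identity of the line is taken from the labels. Of the markers of other cell types, 5 of 8 for microglia and macrophages, 1 of 5 for lymphocytes, 4 of 5 for fibroblasts and 4 of 4 for endothelium were in the table, and they summed to at most 1.55, 0.54, 3.72 and 0.31 TPM in any library. Vector replicate 1 stood apart from the other 8 libraries. Over the 53 genes its counts differed from those of Vector replicates 2 and 3 by 25 and 17.8 units of chi-square per gene, where the other pairs within a group gave 1.05 to 1.76. For members compared with Vector below by their CPM, the log2 fold change without it is given too.

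Promoter sequence was examined first, since E2F sites are the feature for which this group of genes is best known. Of the 53 genes, 46 had an entry among the RefSeq promoters (GRCh38.p14, from 250 bases before to 50 bases after the start). The E2F site was searched on both strands as TTTCCCGC, TTTCGCGC, TTTGCCGC or TTTGGCGC, and matches on opposite strands can overlap. It occurred in 23 of the 46 promoters (50%), against 5.52% of the 10470 matched promoters of all genes tested and 3.33% of the 27305 promoters in the RefSeq table. The share was not even across roles. All 4 MCM2-7 promoters with an entry and both licensing loaders held a site, as did 3 of 4 G1/S regulators, but only 1 of 6 origin recognition genes and 1 of 4 nucleotide supply genes did. In the 23 promoters, 22 of 30 matches lay between 60 bases before and 10 bases after the start, and 5 promoters held 2 matches or more. The CCAAT box was in 54.3% of the members' promoters against 37.2% of those of all genes tested, while the CHR element TTTGAA, known from promoters of G2/M genes, was in 2 of 46 (4.35%) against 9.69%. A match is a string of letters and not evidence of binding.

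The 200 bases before the start are shown for 4 promoters that cover the range of arrangements and include the member with the smallest p in 2 comparisons, DTL. Sequences run 5' to 3' on the gene's strand, with E2F matches in capitals. E2F1 (chr20:33686386-33686585, minus strand) encodes an activating E2F and carries matches of its own family's site. MCM6 (chr2:135876444-135876643, minus strand) has 2 copies of TTTGGCGCGAAA, in which a match on each strand overlaps, MCM7 (chr7:100101398-100101597, minus strand) has a distant and a start-proximal match, and DTL (chr1:212035548-212035747, plus strand) has 1 match that adjoins the start.
E2F1: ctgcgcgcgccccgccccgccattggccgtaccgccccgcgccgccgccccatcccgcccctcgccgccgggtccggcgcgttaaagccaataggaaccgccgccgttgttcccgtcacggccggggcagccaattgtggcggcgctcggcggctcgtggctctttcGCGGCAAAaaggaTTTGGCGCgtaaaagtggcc
MCM6: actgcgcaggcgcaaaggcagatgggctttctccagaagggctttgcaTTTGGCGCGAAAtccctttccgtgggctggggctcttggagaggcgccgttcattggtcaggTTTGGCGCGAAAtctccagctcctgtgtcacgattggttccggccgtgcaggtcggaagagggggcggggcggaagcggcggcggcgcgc
MCM7: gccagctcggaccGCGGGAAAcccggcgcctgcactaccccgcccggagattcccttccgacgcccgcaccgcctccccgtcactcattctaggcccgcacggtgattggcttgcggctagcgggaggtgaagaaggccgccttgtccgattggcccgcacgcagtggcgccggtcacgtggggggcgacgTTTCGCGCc
DTL: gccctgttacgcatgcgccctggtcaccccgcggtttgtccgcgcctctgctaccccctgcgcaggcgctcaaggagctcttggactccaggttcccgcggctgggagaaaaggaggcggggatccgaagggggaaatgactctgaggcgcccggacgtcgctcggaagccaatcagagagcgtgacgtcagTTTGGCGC

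Levels were compared between genes only in TPM, which is scaled by transcript length. The members were abundant: their median was 81.3 TPM over the 9 libraries, against 19.8 for all genes tested, and 52 of the 53 lay above that all-gene median. Together they made up 0.622 to 0.646% of all TPM in a library. PCNA, the sliding clamp, was highest at 610 ± 19.6 TPM (SD over 9 libraries), and E2F2, another activating E2F, was lowest at 12.6 ± 0.861. Even E2F2 had at least 402 counts in each library. In 20 of the 43 pairs of neighbours in the order of levels within a role, the ranges over the 9 libraries overlapped. Of those, 6 pairs kept the same order in all 9 libraries, among them MCM3 over MCM2, RFC4 over RFC1 and RRM2 over TYMS, and in the other 14 the order varied between libraries. Counts were not whole in every library for 8 members (ORC4, ORC6, RFC2, RFC5, POLA2, PRIM2, TYMS and CCNE2), so that reads shared with other genes may enter their levels.

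Members of one complex were unequal in RNA level. Among the 6 MCM2-7 subunits, which sit in the helicase in equal copies, MCM7 was highest at 441 ± 14.8 TPM (SD, n = 9), followed by MCM4 at 247, MCM3 at 218, MCM2 at 200, MCM6 at 167 and MCM5 at 84.2, so that MCM7 was 5.24-fold above MCM5. In the origin recognition complex, ORC6 stood at 146 TPM and ORC2 at 48.7. CDC6 was at 97.2 and CDT1, its partner in loading the helicase, at 51.4. The kinase CDC7 was at 135 and its activating subunit DBF4 at 54.9, while the 4 GINS subunits lay close together, from 51.2 (GINS4) to 74.7 (GINS2). Single-strand binding protein subunits ranged from 384 (RPA2) over 153 (RPA1) to 58.8 (RPA3).

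Enzymes and regulators differed as widely. The clamp loader subunits ran from 190 TPM for RFC3 to 73.4 for RFC1, and polymerase and primase subunits from 104 for PRIM1 to 35.2 for POLD1, the catalytic subunit of polymerase delta. LIG1, the ligase that joins Okazaki fragments, was at 39.8. Both subunits of ribonucleotide reductase were high, RRM1 at 267 and RRM2 at 195, with thymidylate synthase (TYMS) at 185 and thymidine kinase (TK1) at 119. CDC25A, the phosphatase that activates CDK2, was at 105, well above the cyclins CCNE1 (34.0) and CCNE2 (30.0) and above E2F1 (23.6). SLBP, which binds histone mRNA, was at 158, UHRF1, which reads methylated DNA behind the fork, at 81.3, and DTL, the substrate adaptor through which CDT1 is degraded in S phase, at 72.6.

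**Figure D1:**
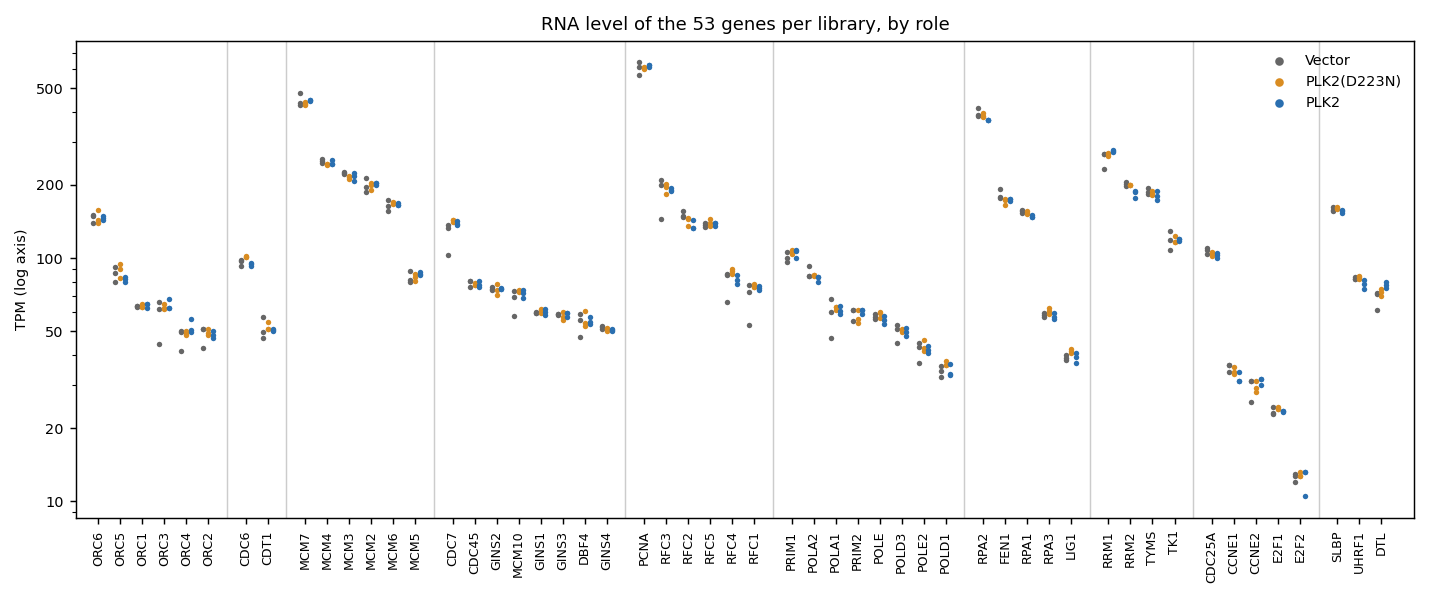
RNA level in TPM (log axis) of the 53 genes by role; each point is 1 library, 3 per group, coloured by group. The groups lie on top of each other for nearly every gene, while genes of one role span several-fold, from PCNA at a mean of 610 down to E2F2 at 12.6.

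PLK2 against Vector asks what the kinase changes in these cells. None of the 53 genes passed an adjusted p of 0.05 in either direction (edgeR quasi-likelihood test, Benjamini-Hochberg over 12924 genes), where 0.511% of all genes tested did, and DESeq2 also called 0 members. At an unadjusted p under 0.05 there were 6 members (11.3%, against 16.4% of all genes), 3 higher where 9.56% of all genes were and 3 lower where 6.81% were. The median log2 fold change was 0.00, equal to that of all genes, and 26 of the 53 lay above 0. The groups' libraries did not overlap for 11 members (20.8%, against 20.1% of all genes), 4 higher and 7 lower, where 10% and 10.1% of all genes were. In bulk RNA, fewer cells in S phase and less RNA per such cell cannot be told apart, so these values are averages over the culture. The p-values set each difference against the spread between these libraries, estimated over all 3 groups. The design text calls the libraries biological replicates.

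The size of any difference was narrowly bounded. For all 53 genes the 95% interval of the log2 fold change lay within ±0.5, and for 45 within ±0.25. The outermost bounds were -0.29 for CCNE1 and 0.42 for ORC4, the latter a 1.34-fold difference.

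The member with the smallest p was DTL, which stood at 148, 160 and 165 CPM in Vector replicates 1 to 3, at 165, 155 and 164 with PLK2(D223N) and at 181, 189 and 172 with PLK2. All 3 PLK2 libraries lay above all 6 others. The log2 fold change of PLK2 over Vector was 0.19 (SE 0.06, 95% interval 0.07 to 0.31, adjusted p = 0.145, edgeR). Without Vector replicate 1 it was 0.15 (adjusted p = 0.0311, edgeR). DTL was the only member called in that fit (1.89%), where 2.79% of all genes were called. Without Vector replicate 2 the adjusted p was 0.0344 (edgeR), and ORC3, ORC4, RFC1 and CDC7 also passed, which makes 9.43% of the members where 12.7% of all genes (1656) were called.

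ORC4, an ATPase-fold subunit of the origin recognition complex, was at 104, 140 and 132 CPM with Vector, at 135, 133 and 136 with PLK2(D223N) and at 143, 158 and 144 with PLK2. Vector replicate 1 was the lowest of the 9 libraries, and the PLK2 libraries were above the rest (log2 fold change 0.24 over Vector, SE 0.08, adjusted p = 0.198, edgeR). Without Vector replicate 1 the log2 fold change was 0.12 (adjusted p = 0.107, edgeR). Its counts were whole numbers in only 1 of 9 libraries, as an estimate that splits shared reads gives, and its level is uncertain. CDC7 was at 176, 220 and 217 with Vector and at 233, 229 and 220 with PLK2 (0.16, adjusted p = 0.297, edgeR) with Vector replicate 1 the lowest library; without it the log2 fold change was 0.06.

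Of the 4 nucleotide supply genes, TYMS (-0.06) and TK1 (0.01) were near 0. RRM1, the large subunit of ribonucleotide reductase, was at 389, 419 and 427 CPM with Vector and at 443, 453 and 429 with PLK2 (log2 fold change 0.10, adjusted p = 0.328, edgeR; 0.06 without Vector replicate 1). RRM2, the small and cell cycle-regulated subunit, was at 360, 328 and 328 with Vector, at 322, 319 and 327 with PLK2(D223N) and at 314, 301 and 309 with PLK2. The 3 groups did not overlap for RRM2, with PLK2 lowest. The log2 fold change over Vector was -0.14 (95% interval -0.25 to -0.03, adjusted p = 0.221, edgeR), -0.09 without Vector replicate 1, and -0.15 with an adjusted p of 0.0459 (edgeR) where trends with GC content and length were removed. RRM2 was the only member called in that setting (1.89%), where 3.01% of all genes were called.

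Other roles showed values on both sides of 0. CCNE1, a cyclin that activates CDK2, was at 34.1, 31.5 and 30.2 CPM with Vector and at 28.1, 28.6 and 29.8 with PLK2 (-0.15, adjusted p = 0.291, edgeR; -0.10 without Vector replicate 1), while its paralog CCNE2 was at 35.3, 39.7 and 40.6 with Vector and at 42.3, 40.8 and 40.9 with PLK2 (0.10, adjusted p = 0.45, edgeR; 0.04 without that library). RFC2 was at 123, 109 and 110 with Vector and at 101, 103 and 107 with PLK2 (-0.14, adjusted p = 0.258, edgeR; -0.08 without that library). The MCM2-7 subunits lay between -0.05 and 0.04, 3 above and 3 below 0. Without Vector replicate 1 they lay between -0.03 and 0.12, 5 above 0. All 5 genes of strand maturation and single-strand binding were below 0, from -0.10 (RPA2) to -0.01 (LIG1), and none passed the test. In Vector replicate 1 these 5 genes had a median deviation of 0.11 (log2) from their means over the 9 libraries. That median was -0.02 and 0.01 in Vector replicates 2 and 3, and -0.05 to -0.01 with PLK2.

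**Figure D2:**
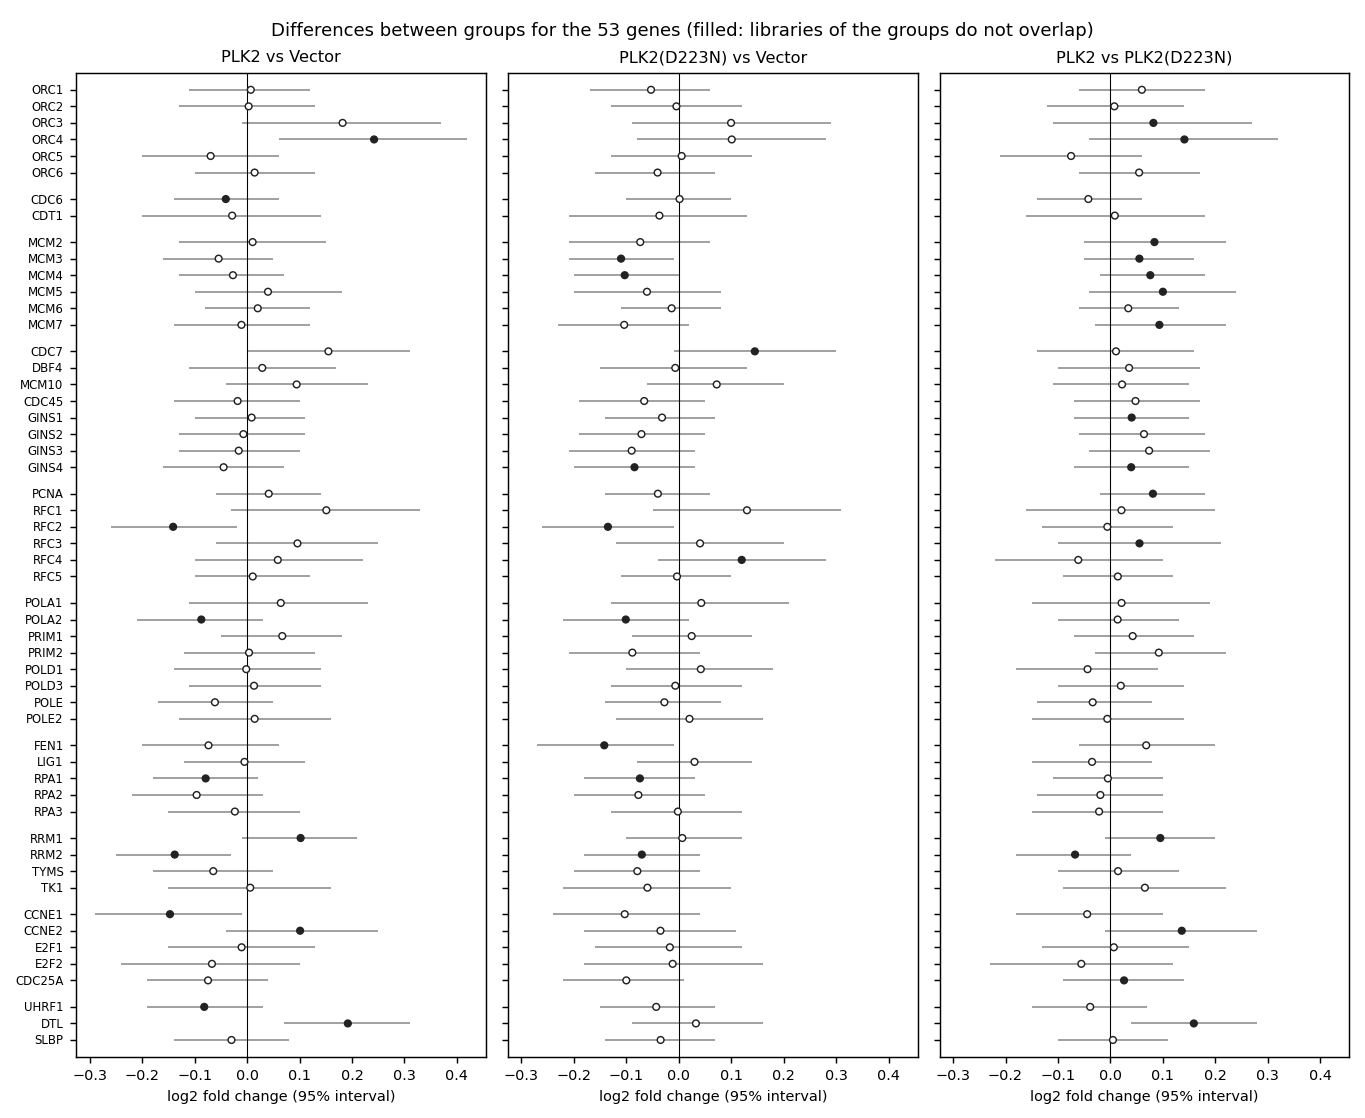
Log2 fold change with its 95% interval (x axis) of each of the 53 genes in the 3 comparisons, by role; filled points are genes whose libraries do not overlap between the groups. All intervals lie within ±0.5, and in the comparison of PLK2 with PLK2(D223N) 38 of 53 points lie to the right of 0.

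PLK2(D223N) against Vector, which shares the Vector libraries with the comparison above, also called no member (edgeR; 0.0232% of all genes were called, and DESeq2 called 0 members). At an unadjusted p under 0.05 there were 4 members (7.55%, against 8.53% of all genes), all lower; over all genes 5.22% were higher and 3.3% lower. The median log2 fold change was -0.03 against 0.01 for all genes. Of the 53, 16 lay above 0, or 30.2% against 52.7% of all genes. The libraries did not overlap for 10 members (18.9%, against 13.9% of all genes), 2 higher and 8 lower, where 6.66% and 7.21% of all genes were. Intervals lay within ±0.5 for all 53 and within ±0.25 for 46. On the log2(TPM + 1) scale, where the median of all genes was itself 0.05, 34 of the 53 lay above 0 but 16 above that median, against 13 above the all-gene median in CPM. The sign of these small values thus depended on the scaling.

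The helicase genes were among those on the low side. All 6 MCM2-7 subunits were below 0, from -0.11 to -0.01. MCM3 was at 361, 341 and 346 CPM with Vector and at 318, 327 and 326 with PLK2(D223N) (-0.11, unadjusted p = 0.0366, adjusted p = 0.574, edgeR; -0.09 without Vector replicate 1). MCM4 was at 555, 530 and 519 with Vector and at 492, 499 and 503 with PLK2(D223N) (-0.10, unadjusted p = 0.0428, adjusted p = 0.574, edgeR; -0.08 without it). On the log2(TPM + 1) scale 2 of the 6 were above 0, and with all 9 libraries none was above the median of all genes on either scale. Without Vector replicate 1 the 6 lay between -0.09 and 0.02 in CPM. Of these, 2 were above 0 and 2 above the median of all genes.

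The other members at an unadjusted p under 0.05 were RFC2 and FEN1. RFC2 was at 105, 105 and 100 CPM with PLK2(D223N), below all Vector libraries (-0.13, adjusted p = 0.574, edgeR; -0.08 without Vector replicate 1). FEN1, the flap endonuclease that trims Okazaki fragments, was at 192, 165 and 170 with Vector and at 160, 154 and 165 with PLK2(D223N) (-0.14, 95% interval -0.27 to -0.01, adjusted p = 0.574, edgeR), with Vector replicate 1 the highest library and a log2 fold change of -0.07 without it. CDC7 went the other way, from 204 ± 24.4 with Vector to 226 ± 3.25 (SD, n = 3; log2 fold change 0.14, adjusted p = 0.574, edgeR), and by 0.05 without Vector replicate 1.

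PLK2 against PLK2(D223N) compares the 2 forms, which differ at 1 residue and in transgene RNA level, and leaves the Vector libraries out of the contrast. No member was called (edgeR; 0.162% of all genes were called, and DESeq2 called 0 members), and 1 member, DTL, was under an unadjusted p of 0.05, on the higher side (1.89%, against 6.04% of all genes, of which 2.98% were higher and 3.06% lower). The libraries did not overlap for 16 members, or 30.2% against 20.5% of all genes. Of these, 15 were higher with PLK2, or 28.3% of the members against 11% of all genes, and RRM2 was lower, as were 9.49% of all genes. The members' median stood at 0.02 (log2), and 38 of the 53 were above 0 (71.7% against 47.9% of all genes). On the log2(TPM + 1) scale, where the median of all genes was itself at -0.05, 18 of the 53 were above 0 and 40 above that median. Intervals lay within ±0.5 for all 53 genes and within ±0.25 for 49.

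The MCM2-7 helicase was the group with the most such genes. All 6 subunits were above 0 by a log2 fold change of 0.03 to 0.10, and MCM2, MCM3, MCM4, MCM5 and MCM7 did not overlap between the groups. MCM7 was at 606, 508 and 530 CPM with Vector, at 502, 515 and 513 with PLK2(D223N) and at 543, 554 and 535 with PLK2, so that the PLK2 libraries were within the Vector range and above the PLK2(D223N) range (0.09, adjusted p = 0.906, edgeR). MCM5 was at 130, 127 and 123 with PLK2(D223N) and at 136, 140 and 131 with PLK2 (0.10, adjusted p = 0.907, edgeR). MCM2 was at 337, 323 and 350 with PLK2(D223N) and at 360, 360 and 351 with PLK2 (0.08, adjusted p = 0.926, edgeR). MCM6 overlapped (0.03). On the log2(TPM + 1) scale 5 of the 6 were above 0, between -0.02 and 0.05, and all 6 were above the median of all genes. No subunit passed the test in any of the 3 comparisons as fitted to all 9 libraries.

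DTL gave the smallest p here too (log2 fold change 0.16, 95% interval 0.04 to 0.28, adjusted p = 0.668, edgeR), with the 3 libraries of each form separated as given above. ORC4 was 0.14 higher (adjusted p = 0.891, edgeR), RRM1 0.10 (adjusted p = 0.866, edgeR) and PCNA 0.08 (adjusted p = 0.887, edgeR), all with separated libraries. CCNE2 was at 35.8, 36.8 and 40.2 CPM with PLK2(D223N), below every PLK2 library (0.14, adjusted p = 0.86, edgeR). RRM2 was the member with lower libraries throughout (-0.07, adjusted p = 0.926, edgeR). All 8 origin firing genes were above 0, by 0.01 to 0.07.

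Calls between the kinase forms differed with the libraries fitted. Fitted to the 6 PLK2 and PLK2(D223N) libraries alone, edgeR called 4 members, all higher with PLK2: DTL (adjusted p = 0.000657), ORC4 (0.00619), MCM7 (0.0281) and RRM1 (0.0297), or 7.55% of the members where 3.92% of all genes (502) were called. Fitted to all libraries without Vector replicate 1, it called DTL (0.00614) and ORC4 (0.0264), or 3.77% of the members where 2.43% of all genes (317) were called. Their log2 fold changes in the fit to 6 libraries were 0.16, 0.14, 0.09 and 0.10, the values of the fit to all 9. The cause of the lower adjusted p was not tested.

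**Figure D3:**
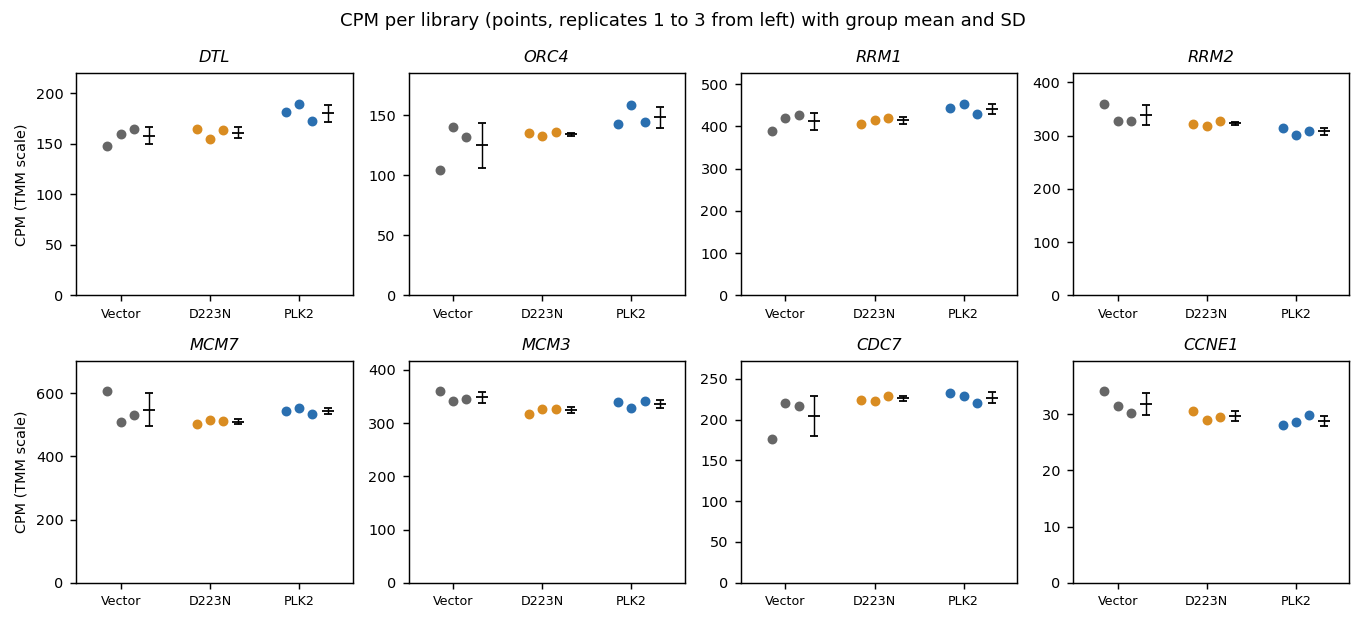
CPM on the scale of trimmed mean of M-values (TMM) in each library (points, replicates 1 to 3 from left) with the group mean and SD, for 8 genes; axes start at 0. DTL is above the other groups in all 3 PLK2 libraries, RRM2 steps down from Vector to PLK2, and Vector replicate 1 is the lowest point for ORC4 and CDC7 and the highest for MCM7 and RRM2.

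The members' E2F sites were set beside these differences. In PLK2 against PLK2(D223N), members with a site had a median log2 fold change of 0.03 and those without a site 0.02, with 23 genes in each group. Higher, non-overlapping PLK2 libraries were found for 9 with a site and 2 without, and for 11% of all genes. MCM4, MCM5, GINS4 and CCNE2 were also higher without overlap, but had no promoter entry and are in neither group. Against Vector the medians were -0.01 with a site and 0.01 without for PLK2, and -0.03 and -0.01 for PLK2(D223N). For PLK2 against Vector, 1 with a site and 2 without were higher without overlap (10% of all genes). Lower were 3 and 4 (10.1% of all genes). For PLK2(D223N) against Vector, 0 and 2 were higher (6.66% of all genes) and 2 and 4 lower (7.21%). These are descriptions, and the difference between the groups of genes was not tested.

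Within the Vector group, the members' values moved with base composition. In Vector replicate 1, 22 members lay over 0.1 above (log2) their mean over the 9 libraries and 15 lay over 0.1 below it, from -0.39 for ORC3 to 0.24 for CDT1. Across the 53 genes this deviation had a Pearson correlation of 0.752 and a Spearman correlation of 0.843 with transcript GC content; the points share 1 library. In Vector replicate 2 the Pearson correlation was -0.734, and in the other 7 libraries it lay between -0.413 and -0.0574. Each deviation is taken from the mean over all 9 libraries, so a trend in 1 library pushes the others the opposite way. The negative values are thus in part built in. Over all genes with a GC value the correlation was 0.548 in Vector replicate 1 and -0.256 in Vector replicate 2, so these trends were not particular to the members. With PLK2 it was -0.189, -0.261 and -0.11 over all genes in replicates 1 to 3, and with PLK2(D223N) -0.00819, 0.0226 and -0.0122. The 10 members of lowest GC content (36.9 to 41.6%, among them CCNE2, ORC4, CDC7 and ORC3) had a median deviation of -0.14 in Vector replicate 1. The 10 of highest GC content (56.3 to 65%, among them MCM2, MCM5, MCM7, E2F1 and CDT1) had 0.14, all above 0, and -0.09 in Vector replicate 2, all below 0. Of the 10 lowest, 7, 9 and 10 lay above 0 in PLK2 replicates 1 to 3, against 4, 2 and 6 with PLK2(D223N). Of the 10 highest, 5, 6 and 6 did with PLK2, against 6, 4 and 4 with PLK2(D223N). The Vector values bear on the comparisons with Vector and on the spread used in all 3. Trends with GC content also differed between the kinase forms, and so bear on the comparison of PLK2 with PLK2(D223N). Their part in the differences above was not tested beyond the alternatives given.

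**Figure D4:**
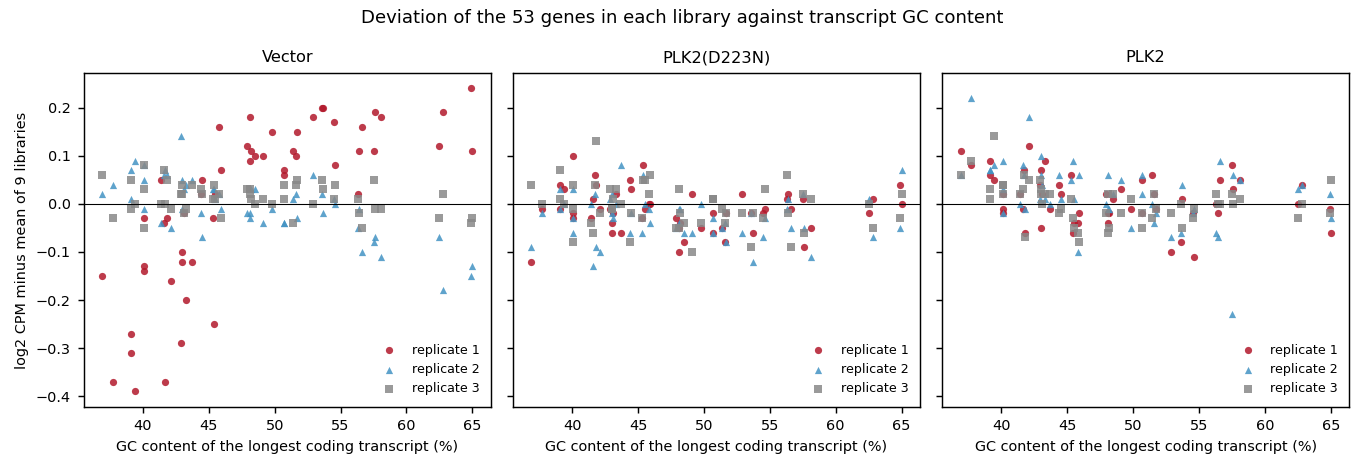
Deviation of each of the 53 genes from its mean over the 9 libraries (log2 CPM, y axis) against GC content of its longest coding transcript (x axis, %), 1 panel per group, 1 symbol per library. Vector replicate 1 rises with GC content and Vector replicate 2 falls, while in the PLK2(D223N) and PLK2 libraries the correlation lies between -0.413 and -0.0574.

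Other genes of the same pathways were described from lists, chosen with earlier results known. Of 37 other replication genes, 0 were called in any comparison (edgeR; 0 by DESeq2; 7, 4 and 1 at an unadjusted p under 0.05 in the order below, where 16.4%, 8.53% and 6.04% of all genes were), with medians of 0.03 for PLK2 against Vector, 0.01 for PLK2(D223N) against Vector and 0.04 between the kinase forms. RRM2B, a ribonucleotide reductase subunit, was at 68.9, 85 and 78.9 CPM with Vector and at 92.8, 91.1 and 88.5 with PLK2 (0.23, adjusted p = 0.15, edgeR). CHTF18, a subunit of an alternative clamp loader, was at 20.1, 16.7 and 18.4 with Vector and at 22.7, 25.7 and 23.5 with PLK2(D223N) (0.38, adjusted p = 0.415, edgeR). Of 32 G1 control genes none was called (edgeR; 6, 2 and 1 at an unadjusted p under 0.05, and DESeq2 called FBXO5 in PLK2 against Vector), with medians of 0.00, 0.01 and 0.00; FBXO5, an inhibitor of the anaphase-promoting complex, was at 76.5, 85 and 87.5 with Vector and at 100, 101 and 93.6 with PLK2 (0.25, adjusted p = 0.0886, edgeR), and CCND3 was -0.23 (adjusted p = 0.124, edgeR). Of 22 replication checkpoint genes none was called (edgeR; 3, 0 and 1 at an unadjusted p under 0.05, 0 by DESeq2), with medians of 0.09, 0.04 and 0.02. Higher, non-overlapping PLK2 libraries against PLK2(D223N) were found for 11 of the 37 other replication genes (29.7%) and for 28.3% of the 53 members. The same held for 2 of the 32 G1 control genes (6.25%), 6 of the 22 checkpoint genes (27.3%) and 11% of all genes. Above 0 in that comparison were 70.3%, 43.8% and 59.1% of these lists. WEE1, the kinase that restrains CDK1 and CDK2, was 0.17 higher with PLK2 than with PLK2(D223N) (adjusted p = 0.542, edgeR), a difference that passed in the fits named next.

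The 0 counts for these 3 lists did not hold with every setting or set of libraries (edgeR). Removing trends with GC content and length called SAMHD1, CHTF18, TFDP1 and CDKN1A in PLK2 against Vector, where 3.01% of all genes were called. For PLK2 against Vector, leaving out Vector replicate 2 called 7 of the other replication genes, 6 G1 control genes and 3 checkpoint genes (BRIP1, USP1 and FANCI), where 12.7% of all genes were called. Leaving out Vector replicate 1 called 2, 2 and 0 (ATAD5, CHTF18, FBXO5 and CDKN1A), where 2.79% of all genes were. For PLK2(D223N) against Vector, ATAD5 and BRIP1 were called without Vector replicate 2, and CHTF18 without Vector replicate 1. Between the kinase forms, RECQL4, FBXO5 and WEE1 were called without Vector replicate 1, and RECQL4, HELLS, FBXO5, WEE1 and USP1 in the fit to 6 libraries. CDKN1A, TFDP1, HELLS, USP1 and FANCI were named after their values were seen.

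The 32 genes of the next cell cycle phase, G2/M, gave other values. With PLK2 against Vector 4 of the 32 rose, where 0.511% of all genes were called: AURKA (log2 fold change 0.34, adjusted p = 0.00927), HMMR (0.50, adjusted p = 0.0105), CENPE (0.61, adjusted p = 0.0182) and TOP2A (0.45, adjusted p = 0.0408), all by edgeR. The list's median was 0.20, 29 of 32 were above 0, and 22 had higher, non-overlapping PLK2 libraries, as did 10% of all genes. With PLK2(D223N) none was called (edgeR; 2 at an unadjusted p under 0.05, 0 by DESeq2), and the median was 0.05. Between the kinase forms AURKA, the mitotic kinase, rose by 0.33 (adjusted p = 0.0158, edgeR), the median was 0.17, and 29 of 32 did not overlap, all higher with PLK2, as were 11% of all genes. These counts moved with the processing and with the libraries used. For PLK2 against Vector and between the forms, DESeq2 called 9 and 3, edgeR with GC content and length trends removed 17 and 14, and limma on log2(TPM + 1) 1 and 1. In the same order, these settings called 1.11% and 0.286%, 3.01% and 0.735%, and 0.158% and 0.0917% of all genes. Without Vector replicate 1, 22 of the 32 rose against Vector and 23 between the kinase forms (edgeR), where 1 and 2 of the 53 G1/S and replication genes did, and 2.79% and 2.43% of all genes were called. Without Vector replicate 2, 17 rose with PLK2, 6 between the forms and 3 with PLK2(D223N) (TOP2A, CENPE and CENPF, the last named after its values were seen). That fit called 12.7%, 0.414% and 2.66% of all genes in these comparisons. In fits to the 6 libraries compared, 0 rose against Vector and 24 between the forms, where 0 and 4 of the 53 did. Those fits called 0.18% and 3.92% of all genes. Without Vector replicate 3, 1 rose in each, where 0.338% and 0.138% of all genes were called. Leaving out PLK2 replicate 1 or 2 left none called in either comparison, and leaving out any 1 PLK2(D223N) library left none between the forms. AURKA stood at 143, 138 and 136 CPM with Vector, at 139, 141 and 138 with PLK2(D223N) and at 175, 186 and 166 with PLK2. In the libraries themselves the G2/M median lay between -0.16 and -0.02 with Vector, from -0.04 to -0.03 with PLK2(D223N) and from 0.10 to 0.16 with PLK2. The median of the 53 G1/S and replication genes was between -0.03 and 0.02 in 8 libraries, and 0.07 in Vector replicate 1. Whether the 2 lists differ was not tested.

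**Figure D5:**
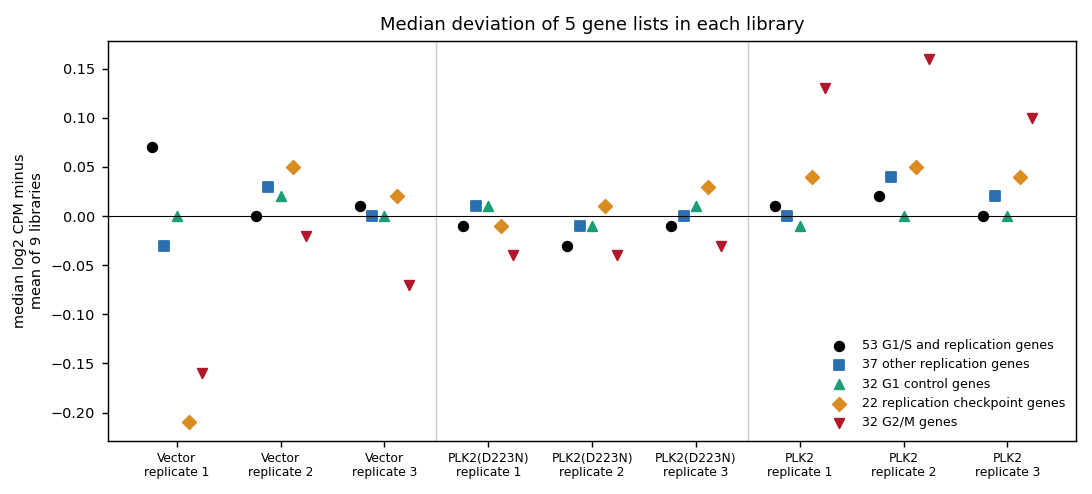
Median deviation (log2 CPM minus the mean over 9 libraries, y axis) of 5 gene lists in each library. The G2/M genes are at 0.10 to 0.16 in the PLK2 libraries and below 0 in the other 6, while the 53 G1/S and replication genes stay between -0.03 and 0.02 outside Vector replicate 1.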

How the data were processed

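The labels describe total RNA with oligo(dT) enrichment. The deposited table gives, per gene and library, estimated (expected) counts, TPM and FPKM, per the file headers and their values. The expected counts are used as the authors deposited them. The submitters' processing notes name Bowtie2, RSEM 1.3.1, DESeq2 1.4.5 and GRCh38.p13, without the role of each. Annotation, strand setting and parameters were not stated in these sources, so reads of a gene and of an antisense partner cannot be told apart. Another 9 per-library columns were not used.

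Estimated counts were rounded and tested with edgeR 4.0.16 (R 4.3.3): filterByExpr, TMM scaling, robust quasi-likelihood fit over all 9 libraries, 2-sided, adjusted by Benjamini-Hochberg over 12924 genes, called at adjusted p below 0.05. CPM are on the TMM scale. The script was tested on simulated data. GC content is that of the longest protein-coding transcript of each gene in the reference annotation; 12836 tested genes had a value. Counts were whole (within 0.005) in all 9 libraries for 45 of the 53 members.

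Alternatives were DESeq2 1.42.0 (size factors and Wald test), other filters, PLK2 left out, the replicate number as a block, fits of 6 libraries, GC content and length trends removed (loess), limma 3.58.1 on log2(TPM + 1) and log2(TPM + 0.1) over genes averaging 1 TPM or more, and each library left out. No pairing of libraries by replicate number is stated. Of 9 same-numbered pairs, whose deviations correlated between -0.105 and 0.116, 1 was over 0.1. With 3 libraries a group, such values cannot exclude a pairing. The members and lists were chosen with earlier results of these data known. Named genes were all MCM2-7 subunits, called members, the highest, lowest and smallest-p members of each role, the called or smallest-p genes of each related list, and PLK2; others were chosen after their values were seen.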

Additional observations from a re-analysis of the deposited data

How the results depend on the processing

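No member was called in 16 of 19 alternatives for PLK2 against Vector, in 19 of 19 for PLK2(D223N) against Vector and in 17 of 19 for PLK2 against PLK2(D223N). The most members called were 5 and 4; none changed sign where called. Removing trends with GC content and length called 1 member (RRM2) in PLK2 against Vector, or 1.89% where 3.01% of all genes were called. The fit to 6 libraries called 4 between the kinase forms, or 7.55% where 3.92% of all genes were called. Leaving out each library gave 0 to 5 members for PLK2 against Vector, 0 to 2 between the forms, and a member median of -0.0335 to 0.00641 for PLK2 against Vector.

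Over the whole table, PLK2 against Vector (66 genes called) gave 143 with DESeq2, 136 without a filter, 23 in the fit to 6 libraries, 389 (258 higher, 131 lower, against 62 and 4) after trends with GC content and length were taken out, 19 with limma on either TPM scale, and 13 to 1656 with a library left out, the lowest without PLK2 replicate 2 and the highest without Vector replicate 2. For PLK2(D223N) against Vector (3 genes) there were 9, 5 and 7 with DESeq2, no filter and GC content removed, and 2 to 347 with a library left out, the highest without Vector replicate 2. Between the forms (21 genes) there were 37, 35, 502 and 95 with DESeq2, no filter, 6 libraries and GC content removed, 11 with limma on either scale, and 9 to 317 with a library left out, the lowest without PLK2(D223N) replicate 2 and the highest without Vector replicate 1. On log2(TPM + 1) and log2(TPM + 0.1) the member median was 0.0249 and 0.0252 for PLK2(D223N) against Vector, and -0.0215 and -0.0219 between the forms. The medians of all genes on those scales were 0.0539 and 0.0581, and -0.0529 and -0.0562, so relative to all genes the members stayed on the same side as in CPM. An E2F site on the gene's strand only was in 23.9% of the members' promoters. The cause of these shifts was not tested.

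The replicate number as a replicate block gave 76, 4 and 20 genes called and no member in any comparison. Whether the numbers pair the libraries is not stated. The lowest count of any member in any library was 402, for E2F2, and the effect of depth was not tested. Each group held 3 libraries, and in the Vector group replicate 1 stood apart. The median half-width of the members' intervals of the log2 fold change was 0.12 in each of the 3 comparisons. The width differed between genes, so 0.12 is not a bound for each of them. For PLK2 against Vector, the interval of ORC3 (0.18, from -0.01 to 0.37) included 0. That of RRM2 (-0.14, from -0.25 to -0.03) did not.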
